A study of Mus musculus with 12 samples.

Results

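Transcripts of the Tfe3, Tfeb and folliculin axis were followed in mouse embryonic stem cells (ESCs) and in the epiblast-like cells (EpiLCs) made from them. The axis was taken as 10 genes matched by symbol: the MiT/TFE transcription factors Tfe3, Tfeb and Mitf, the folliculin gene Flcn with its partners Fnip1 and Fnip2, the Rag GTPase genes Rraga, Rragc and Rragd, and Tsc2. They are 10 of the 51467 genes in the count table, and all 10 passed the filter that kept 14731 genes (at least 3 CPM, reads scaled to a common library total, in at least 3 libraries). The members were listed for their known role in exit from the naive state, not for their values. Earlier results of these data were known at that point.

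MiT/TFE proteins bind E-box sequences and switch on genes of the lysosome and of autophagy. When nutrients are plentiful, Rag GTPases bring them to the lysosome surface, where the kinase complex mTORC1 phosphorylates them and they are kept out of the nucleus. Folliculin, with FNIP1 or FNIP2, is the GTPase-activating protein of RagC and RagD in this step, and TSC2 restrains mTORC1 through the GTPase Rheb. In ESCs, nuclear TFE3 is known to sustain the naive state through Esrrb, and folliculin, its FNIP partners and TSC2 are known to be needed for exit. RNA libraries measure none of the phosphorylation or the movement between nucleus and cytoplasm.

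The cells were wild type, of a V6.5 line that carries a miR-290 mCherry and a miR-302 GFP reporter according to the methods of the study, so all values come from 1 line. ESCs were held in serum medium with LIF and 2i (PD0325901 and CHIR99021), and EpiLCs were taken about 56 h after both LIF and 2i had been withdrawn. Every culture received 4-thiouridine (4sU), a uridine analogue, at 500 µM for 30 min before lysis. Its RNA was divided into a captured, labelled fraction (4sU libraries, nascent RNA) and a fraction depleted of ribosomal RNA (total libraries), which gave 4 groups of 3 libraries, 12 in all.

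Depth ran from 3097693 to 5385644 counted reads in 4sU libraries and from 9300845 to 21975684 in total libraries. All 9 naive markers fell and all 6 formative or primed markers rose in total RNA (limma-voom, adjusted p under 0.05), and the summed naive level went from 3627 to 3864 CPM in ESCs to 319 to 329 CPM in EpiLCs. Some markers of other cell types changed as well. The summed level of 7 fibroblast genes was 3.88 to 4.73 CPM in ESC and 14.6 to 18.9 CPM in EpiLC total RNA, where Col1a2 rose by 4.57 ± 0.45 on the log2 scale (limma-voom adjusted p = 5.5e-07) and Dcn also rose, from 0 reads in every ESC library to 40, 56 and 47 reads. The summed CPM in total RNA was 3.25 to 8.06 in ESCs and 6.14 to 6.56 in EpiLCs for 5 primitive endoderm genes. For 4 trophectoderm genes it was 48.8 to 63.6 and 15.7 to 22.8. For 4 macrophage genes it was 17.5 to 19.9 and 3.68 to 5.24, most of it Cd68. Csf1r and Adgre1 of that list had 1 read or fewer in every library. Ptprc, the remaining gene, had 0 reads in every ESC library and 0, 8 and 2 reads in the EpiLC total libraries. Tfap2c of the trophectoderm list, which is also expressed in naive cells, fell by 3.35 ± 0.15 (limma-voom adjusted p = 2.0e-10), Cd68 by 2.17 ± 0.19 (limma-voom adjusted p = 1.3e-07) and Sox17 of the endoderm list by 4.13 ± 0.58 (limma-voom adjusted p = 2.0e-05), whereas Gata4 of that list rose by 1.24 ± 0.29 (limma-voom adjusted p = 0.0016). The part of these genes in the members' changes was not tested. ESC replicate 3 stood apart from the other ESC libraries in both assays. Its chi-square per degree of freedom against them was 28.6 and 29.7 in total RNA, where the other pair gave 2.65. Results of members that turn on it are therefore given with and without it. For genes of the pathway lists this was done only in part.

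The MiT/TFE factors moved in opposite directions. Tfeb and Mitf RNA fell by about an order of magnitude in EpiLCs, to a few CPM in both assays, while Tfe3 rose by less than 2-fold in both. Of the 10 members, 3 rose and 3 fell in total RNA (limma-voom, adjusted p under 0.05), against 31.4% of all genes that rose and 32.1% that fell. In nascent RNA 3 rose and 3 fell, against 23.7% and 28.8% of all genes. Tfeb and Mitf were the only members past a 2-fold change; in total RNA 11.2% of all genes fell and 16.3% rose by this rule, and in nascent RNA 13.5% fell and 11.9% rose. In libraries of mixed cells, fewer cells that express a gene and less RNA per cell cannot be told apart.

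**Figure D1:**
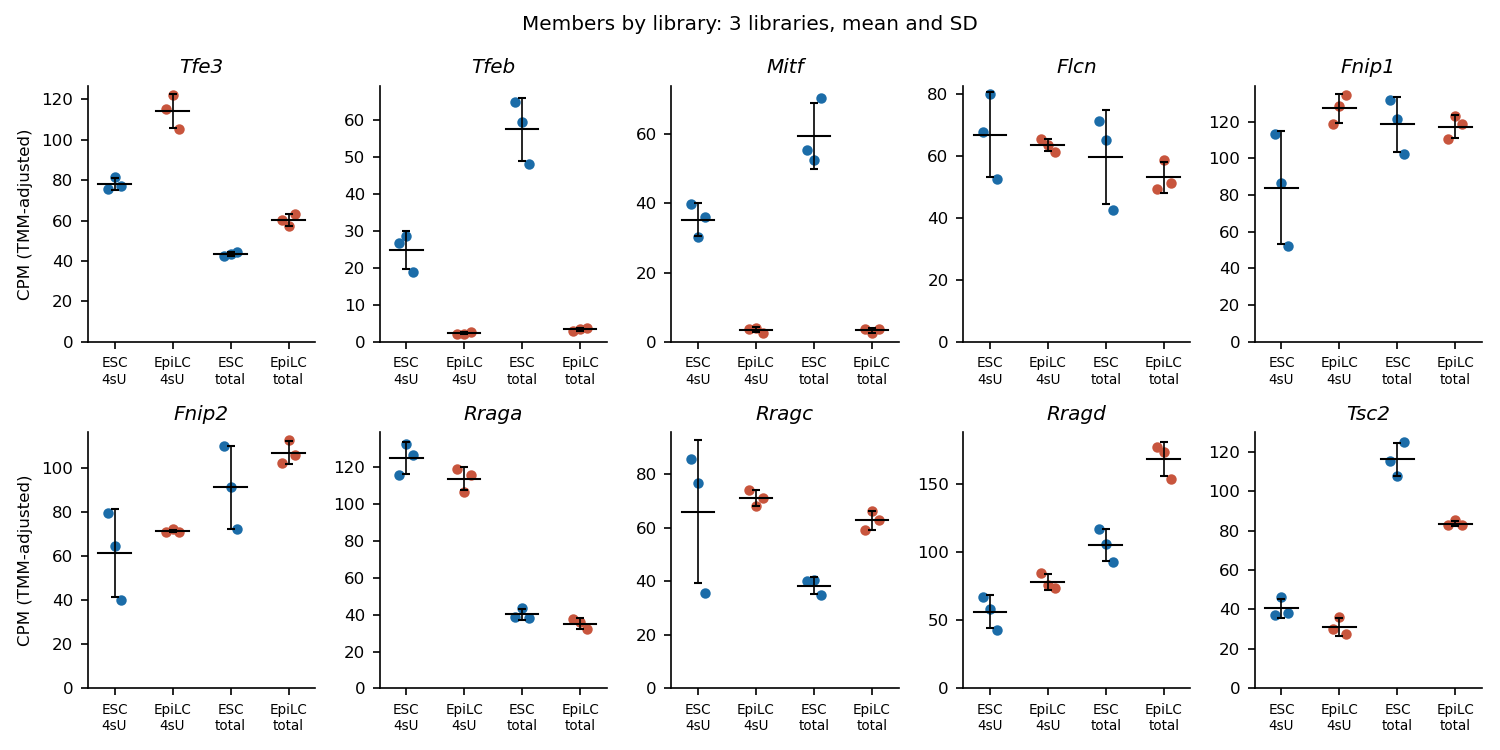
Level of each member in TMM-adjusted CPM (vertical axes, from 0) in 3 libraries per group (points; blue ESC, red EpiLC), with mean (long bar) and SD (whiskers). The EpiLC points of Tfeb and Mitf lie at 2.12 to 4.03 CPM, far under every ESC point, and those of Tfe3 lie above every ESC point of the same assay.

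Tfeb (chr17:47737030-47792419, plus strand, mm10), a master regulator of lysosome formation, stood at 65.0, 59.6 and 48.2 CPM in the ESC total libraries and at 3.01, 3.60 and 3.68 CPM in the EpiLC total libraries. The nascent values were 26.8, 28.6 and 19.0 CPM in ESCs and 2.12, 2.12 and 2.67 CPM in EpiLCs. The ESC and EpiLC libraries did not overlap in either assay, and the nascent EpiLC values rested on 9, 10 and 9 reads. Total Tfeb RNA was 16.5-fold lower (log2 fold change -4.05 ± 0.23 SE, limma-voom adjusted p = 1.6e-09). Nascent Tfeb RNA was 10.5-fold lower (-3.39 ± 0.38, limma-voom adjusted p = 4.3e-06).

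Mitf (chr6:97807052-98021349, plus strand), best known for its role in pigment cells, stood at 55.4, 52.6 and 70.5 CPM in ESC total RNA and at 3.68, 2.56 and 3.58 CPM in EpiLC total RNA. Nascent Mitf RNA stood at 39.7, 30.2 and 36.1 CPM in ESCs and at 3.77, 4.03 and 2.67 CPM in EpiLCs. Again no library of one cell type reached into the range of the other. The fall was 17.97-fold in total RNA (log2 fold change -4.17 ± 0.23, limma-voom adjusted p = 1.6e-09) and 9.64-fold in nascent RNA (-3.27 ± 0.33, limma-voom adjusted p = 1.6e-06). The counts are sums over the whole gene, so they do not separate the Mitf isoforms that start at different promoters.

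Pigment-cell genes were looked at beside Mitf. Pmel, which encodes a melanosome matrix protein, went from 45.5, 39.3 and 40.7 CPM in ESC total RNA to 2.12, 3.03 and 2.98 CPM in EpiLCs (log2 fold change -3.92 ± 0.23, limma-voom adjusted p = 2.6e-09). Mlana, another melanosomal gene, had 48, 40 and 24 reads in ESC total libraries and 3, 1 and 1 reads in EpiLC total libraries, under the filter. Of the pigment enzymes, Tyr and Tyrp1 had 0 reads in all 12 libraries and Dct had 1 read in all. The defining enzymes of melanocytes were thus at or near 0 reads in the ESC libraries where Mitf, Pmel and Mlana were detected.

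Tfe3 (chrX:7762658-7775202, plus strand), the family member tied to the naive state, went from 42.5, 43.6 and 44.6 CPM in ESC total RNA to 60.1, 57.2 and 63.4 CPM in EpiLC total RNA. Nascent Tfe3 RNA went from 75.7, 81.4 and 77.3 CPM to 115, 122 and 105 CPM. Every EpiLC library lay above every ESC library of the same assay. The rise was 1.38-fold in total RNA (log2 fold change 0.47 ± 0.08, limma-voom adjusted p = 0.00011) and 1.46-fold in nascent RNA (0.55 ± 0.08, limma-voom adjusted p = 8.8e-05).

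Levels of different genes were compared as TPM, which divides reads by the exonic length of each gene before scaling every library to the same total. TPM had no TMM adjustment, unlike the CPM above, so changes between the cell types differ in size between these scales. In total RNA the mean of Rraga went from 40.2 CPM in ESCs to 35.2 CPM in EpiLCs, but from 39.6 to 40.4 TPM. In ESC total RNA the 3 factors were close: Tfeb stood at 22.8 ± 2.86 TPM, Tfe3 at 19.2 ± 0.964 TPM and Mitf at 17.9 ± 3.32 TPM (SD, n = 3), with overlapping ranges. In EpiLC total RNA Tfe3 stood at 31.0 ± 2.55 TPM, Tfeb at 1.59 ± 0.228 TPM and Mitf at 1.143 ± 0.218 TPM. Tfe3 thus made up 32.1 ± 1.25% of MiT/TFE transcripts in ESC total RNA and 91.9 ± 0.181% in EpiLC total RNA. The fourth family member, Tfec, had at most 1 read in any library.

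In nascent RNA the share of Tfe3 was 62.8 ± 2.77% in ESCs and 96.2 ± 0.0939% in EpiLCs. Reads were counted over exons only, and how unspliced RNA bears on the nascent shares was not tested. The summed family level was 60.0 ± 1.495 TPM in ESC and 33.7 ± 2.84 TPM in EpiLC total RNA, and in nascent RNA it was 47.8 ± 6.64 TPM in ESCs and 47.4 ± 3.66 TPM in EpiLCs. An exact two-sided permutation test of 3 against 3 libraries gave p = 0.1 for the total sum and for both shares, which is the smallest it can give, and p = 1 for the nascent sum. The total sum and both shares did not overlap between the cell types. Over the 10 exact tests run on sums and shares of gene families, the lowest adjusted p was 0.143, so none passed.

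**Figure D2:**
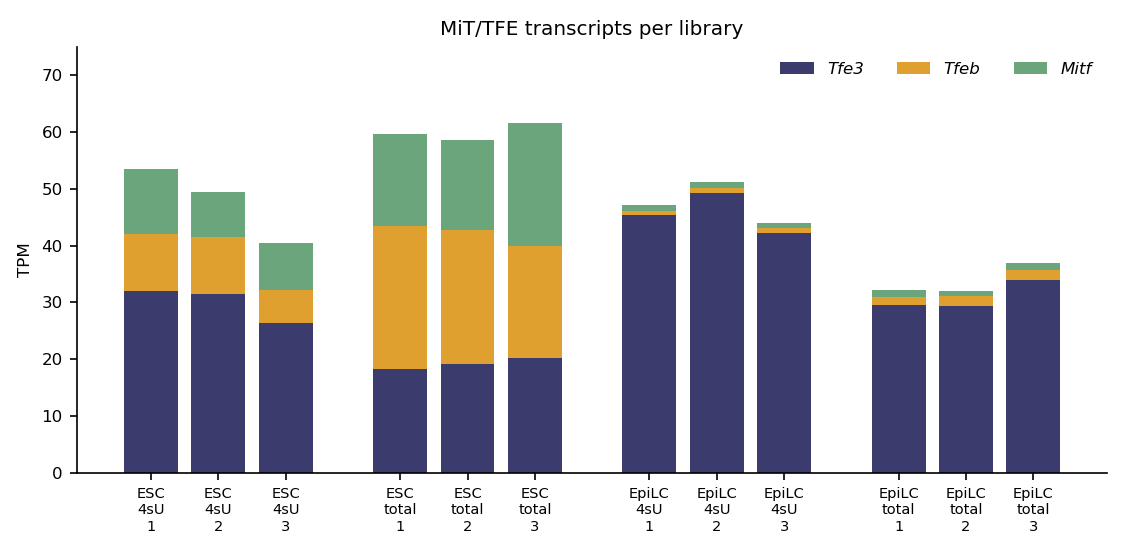
Stacked TPM of Tfe3, Tfeb and Mitf in each of the 12 libraries (horizontal axis: cell type, assay, replicate). Tfeb and Mitf fill most of the ESC total bars and a sliver of the EpiLC bars, and the nascent bars of both cell types are of similar height.

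Folliculin and its partners changed less. Flcn (chr11:59791408-59810016, minus strand) stood at 71.2, 65.3 and 42.6 CPM in ESC total RNA and 49.2, 58.7 and 51.3 CPM in EpiLC total RNA. Its nascent values were 67.9, 80.2 and 52.6 CPM in ESCs and 65.5, 63.6 and 61.4 CPM in EpiLCs. The cell types overlapped in both assays, and ESC replicate 3 was the lowest library of each. The log2 fold change was -0.16 ± 0.17 in total RNA (limma-voom adjusted p = 0.42) and -0.07 ± 0.20 in nascent RNA (limma-voom adjusted p = 0.77). Without both ESC replicate 3 libraries the total change was -0.37 (limma-voom adjusted p = 0.00043), and the nascent change was -0.24 (limma-voom adjusted p = 0.053). The total change also passed with sample quality weights, at -0.30 (limma-voom adjusted p = 0.0050).

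Fnip1 (chr11:54438199-54518235, plus strand), one of the alternative folliculin partners, had 132, 122 and 102 CPM in ESC total RNA and 111, 123 and 119 CPM in EpiLC total RNA. Its nascent values were 113, 86.6 and 52.1 CPM in ESCs and 119, 129 and 135 CPM in EpiLCs. Only the nascent values separated the cell types, and the ESC nascent libraries spread widely. Nascent Fnip1 rose 1.56-fold (log2 fold change 0.64 ± 0.19, limma-voom adjusted p = 0.013), and total Fnip1 had a log2 fold change of -0.01 ± 0.17 (limma-voom adjusted p = 0.94). Without both ESC replicate 3 libraries the nascent change was 0.34 (limma-voom adjusted p = 0.0076).

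Fnip2 (chr3:79455974-79567796, minus strand), the other partner, had 110, 91.4 and 72.0 CPM in ESC total RNA and 102, 112 and 106 CPM in EpiLC total RNA. Its nascent values were 79.3, 64.4 and 40.1 CPM in ESCs and 70.9, 72.1 and 70.9 CPM in EpiLCs. The ranges overlapped in both assays, and the log2 fold change was 0.24 ± 0.16 in total RNA (limma-voom adjusted p = 0.21) and 0.24 ± 0.21 in nascent RNA (limma-voom adjusted p = 0.34). Per length, Fnip1 made up 60.5 ± 2.04% of the pair in ESC total RNA and 56.2 ± 0.459% in EpiLC total RNA, so both partners were present in either cell type. In nascent RNA its share was 61.3 ± 1.17% in ESCs and 67.6 ± 1.36% in EpiLCs. The shares did not overlap between the cell types in either assay (exact two-sided permutation test, p = 0.1 in each, the smallest that 3 against 3 libraries allow).

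Of the Rag GTPases, Rragc and Rragd rose in total RNA and Rraga did not pass the test. Rragc (chr4:123917446-123936997, plus strand), whose product pairs with RagA or RagB, went from 40.0, 40.3 and 34.8 CPM in ESC total RNA to 59.1, 66.2 and 62.7 CPM in EpiLCs. Its nascent values were 85.7, 76.6 and 35.5 CPM in ESCs and 74.0, 68.0 and 70.9 CPM in EpiLCs. The total libraries did not overlap, whereas the nascent EpiLC values lay inside the ESC range that replicate 3 had widened. Total Rragc rose 1.63-fold (log2 fold change 0.70 ± 0.19, limma-voom adjusted p = 0.0054), and nascent Rragc had a log2 fold change of 0.16 ± 0.22 (limma-voom adjusted p = 0.59). Without both ESC replicate 3 libraries the total change was 0.63 (limma-voom adjusted p = 2.7e-07), and the nascent change turned negative, at -0.21 (limma-voom adjusted p = 0.044).

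Rragd (chr4:32983037-33022180, plus strand), the paralog of Rragc and a known target of MiT/TFE factors, went from 117, 106 and 93.1 CPM in ESC total RNA to 178, 174 and 154 CPM in EpiLCs. Nascent Rragd went from 67.1, 58.7 and 43.1 CPM to 84.6, 76.1 and 73.9 CPM. No ESC library reached the lowest EpiLC library in either assay. The rise was 1.60-fold in total RNA (log2 fold change 0.67 ± 0.11, limma-voom adjusted p = 0.00012) and 1.39-fold in nascent RNA (0.48 ± 0.15, limma-voom adjusted p = 0.014). Rragc and Rragd together went from 56.1 ± 4.09 to 105 ± 4.21 TPM in total RNA. TPM had no TMM adjustment, so this rise is not on the scale of the fold changes above. Rragd made up 57.9 ± 1.42% of the pair in ESC total RNA and 57.4 ± 2.496% in EpiLC total RNA. The difference in that share was -0.517 percentage points (exact two-sided permutation test of 3 against 3 libraries, p = 0.8).

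Rraga (chr4:86575668-86577285, plus strand), which encodes the RagA partner of RagC and RagD, stood at 38.7, 43.7 and 38.1 CPM in ESC total RNA and 37.7, 35.8 and 32.1 CPM in EpiLC total RNA. The total libraries came close without overlapping, and the nascent libraries, at 116, 133 and 127 CPM in ESCs and 119, 107 and 116 CPM in EpiLCs, overlapped. The log2 fold change was -0.20 ± 0.10 in total RNA (limma-voom adjusted p = 0.084) and -0.14 ± 0.09 in nascent RNA (limma-voom adjusted p = 0.22). Without both ESC replicate 3 libraries the total change was -0.24 (limma-voom adjusted p = 0.023). It also passed with median-of-ratios scaling (limma-voom adjusted p = 0.048) and with sample quality weights (limma-voom adjusted p = 0.011). Rragb, the close paralog of Rraga and not a member, had 26.1, 29.8 and 6.19 CPM in ESC total RNA and 62.7, 72.1 and 64.6 CPM in EpiLCs. Total Rragb rose 1.80 ± 0.41 on the log2 scale (limma-voom adjusted p = 0.0014; DESeq2 adjusted p = 0.050, just over the threshold). In TPM it made up 25.3 ± 12.9% of Rraga and Rragb transcripts in ESC total RNA, lowest in replicate 3 at 10.4%, and 57.5 ± 2.71% in EpiLC total RNA. Reads shared by near-identical copies had been dropped as not unique, so the split of the pair is uncertain.

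Tsc2 (chr17:24595937-24632629, minus strand), the GTPase-activating protein of Rheb, went from 115, 108 and 125 CPM in ESC total RNA to 82.8, 85.3 and 82.6 CPM in EpiLCs. Nascent Tsc2 went from 37.2, 46.2 and 38.2 CPM to 30.2, 36.2 and 27.3 CPM. Every EpiLC library lay below every ESC library of its assay, by a small margin in nascent RNA. Total Tsc2 fell 1.38-fold (log2 fold change -0.47 ± 0.09, limma-voom adjusted p = 0.00031), and nascent Tsc2 fell 1.29-fold (-0.37 ± 0.14, limma-voom adjusted p = 0.032). The nascent call was lost under 8 of 21 alternatives, among them when 5 of the libraries were left out in turn (adjusted p up to 0.22). Pkd1 overlaps Tsc2 on the opposite strand, and the counting was set to use strand.

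Over all members, the libraries of the cell types did not overlap for 7 of 10 genes in total RNA and 6 of 10 in nascent RNA. The same was true of 68.6% and 60.7% of all genes tested. The median log2 fold change of the members was -0.09 in total RNA and 0.04 in nascent RNA, where the medians of all genes were 0.02 and -0.09.

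**Figure D3:**
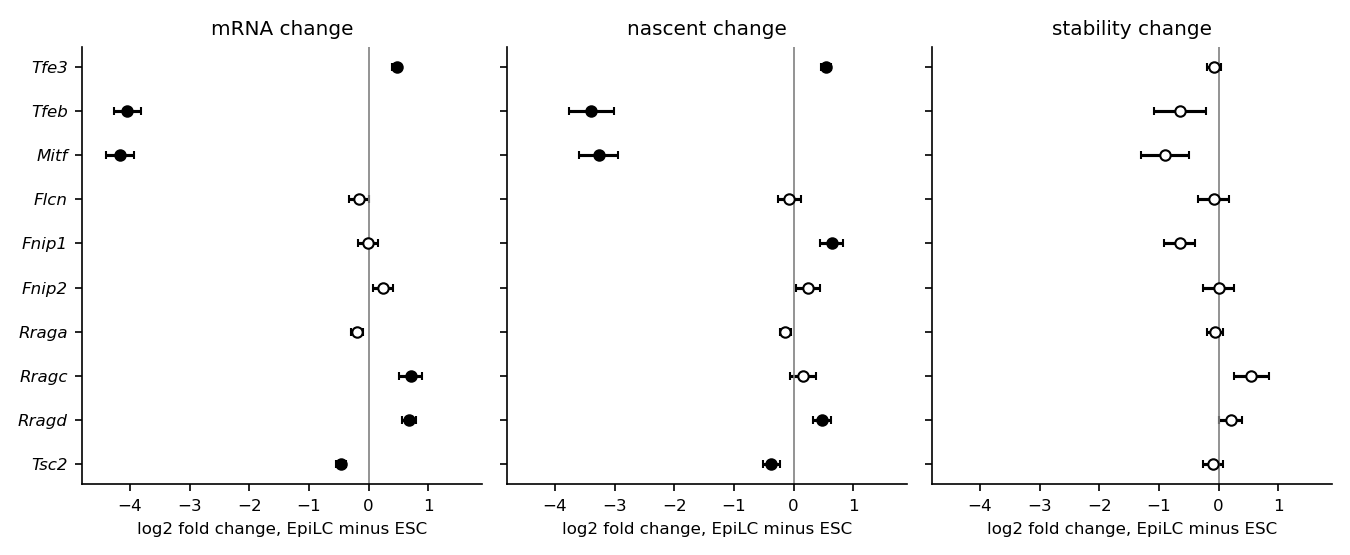
Log2 fold change of each member, EpiLC minus ESC, for total RNA (mRNA change), 4sU RNA (nascent change) and their difference (stability change), with SE as whiskers. Filled points passed an adjusted p under 0.05 in limma-voom; Tfeb and Mitf stand alone near -4 and -3, and no stability point is filled.

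The stability change, the interaction of cell type and assay, asks whether total RNA moved by more or less than nascent RNA. None of the 10 members passed in limma-voom, edgeR or DESeq2, where 2.72% of all genes were called higher and 1.88% lower in stability by limma-voom. At an unadjusted p under 0.05 there were 2 members, Mitf and Fnip1. Mitf had a stability change of -0.90 ± 0.40 (limma-voom adjusted p = 0.20), Fnip1 of -0.65 ± 0.26 (0.15), Tfeb of -0.65 ± 0.44 (0.41) and Rragc of 0.55 ± 0.30 (0.29). The other 6 lay between -0.10 and 0.20. Without both ESC replicate 3 libraries, Fnip1 (-0.46, limma-voom adjusted p = 0.018) and Rragc (0.85, limma-voom adjusted p = 7.2e-05) passed. Sample quality weights gave 3 calls (Mitf, Fnip1 and Rragc). With the 4sU and total libraries of the same cell type and number as a block, Fnip1 passed (-0.63, limma-voom adjusted p = 0.020), and the genes called in stability at over 2-fold went from 227 to 528.

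Relative mRNA stability, log2 of total over 4sU within a cell type, set the members apart from each other more than the cell types did. A 4sU library and the total library that shares its cell type and its number are called a culture here. Tsc2 was the highest, at 1.63, 1.22 and 1.70 in the ESC cultures and 1.45, 1.23 and 1.59 in the EpiLC cultures, the 87.6th and 86.0th percentile of all genes kept. Rraga was the lowest, at -1.58, -1.60 and -1.73 in ESCs and -1.65, -1.57 and -1.84 in EpiLCs, the 17.8th and 15.0th percentile. The exonic length of Rraga, 1618 bases, is its whole span on the genome, so it has no introns. Reads were counted over exons only, and how unspliced RNA bears on ratios compared between genes was not tested.

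Among the factors, Tfeb had the highest ratio in ESCs, at 1.27, 1.05 and 1.33 (81.7th percentile), and 0.46, 0.70 and 0.43 in EpiLCs (61.6th percentile). Mitf stood at 0.48, 0.79 and 0.96 in ESCs and -0.03, -0.61 and 0.39 in EpiLCs, where its reads were few. Tfe3 had the lowest ratio of the 3, at -0.83, -0.90 and -0.79 in ESCs and -0.94, -1.09 and -0.73 in EpiLCs (28.8th and 24.3rd percentile). Rragc, at -1.10, -0.92 and -0.03 in ESCs, had 1 culture, the third, far from the other two, whereas Rragd stood at 0.80, 0.85 and 1.11.

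**Figure D4:**
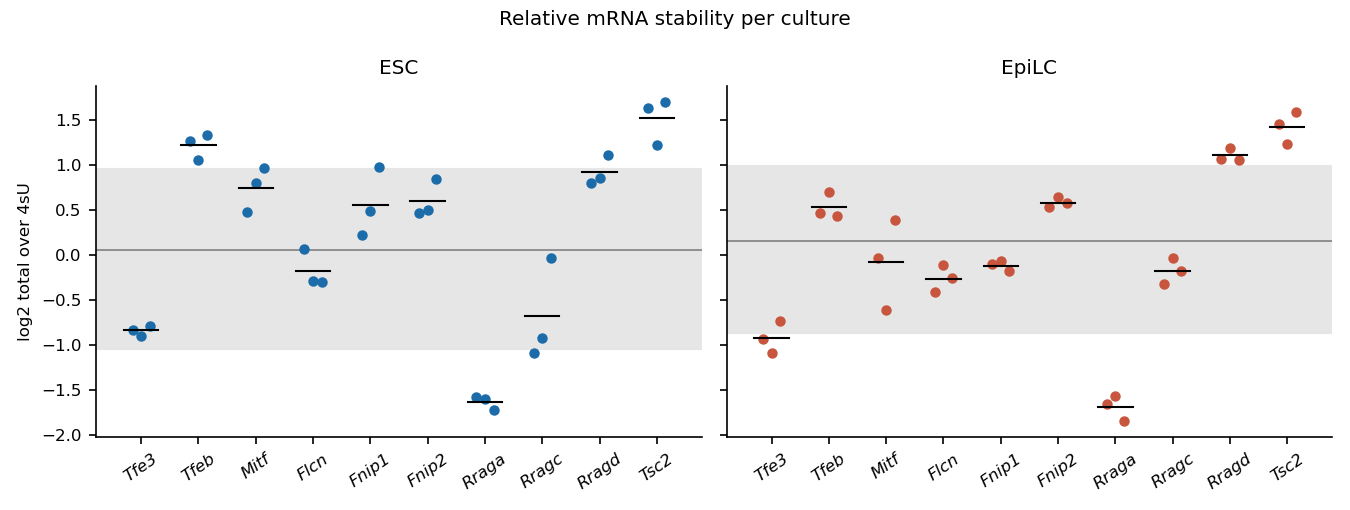
Relative mRNA stability, log2 of total over 4sU, of each member in 3 cultures per cell type (points) with the mean (bar). Grey bands span the middle 50% of all genes kept and the grey line is their median; Tsc2 lies above the band and Rraga below it in both panels.

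Per length, the order of the members differed between total and nascent RNA. In ESC total RNA the means ran from 39.6 TPM for Rraga to 17.9 TPM for Mitf, and only Rraga (37.3 to 43.0 TPM) was separate from its neighbour Rragd (29.5 to 35.3 TPM); the ranges of all other neighbours overlapped. In EpiLC total RNA Rragd led with 60.5 ± 2.53 TPM, above Rragc (45.0 ± 3.78) and Rraga (40.4 ± 1.70), which overlapped each other. Fnip1 (34.9 TPM), Tfe3 (31.0), Flcn (28.1), Fnip2 (27.2) and Tsc2 (25.8) followed as a run of overlapping neighbours, with a wide gap before Tfeb and Mitf. In nascent RNA Rraga stood far above the rest, at 107 ± 9.43 TPM in ESCs and 102 ± 4.53 TPM in EpiLCs. Rraga has no introns and reads were counted over exons only, so its nascent level may not compare directly with those of genes with introns. How unspliced RNA bears on the nascent order was not tested. Tfe3 was second among EpiLC nascent levels, at 45.6 ± 3.57 TPM, and separate from Rragc (39.6 ± 1.13 TPM). TPM sums to the same total in every library, so levels are relative within an assay.

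For each member, the gene with the nearest profile was the one with the smallest root-mean-square difference of centred log2 CPM over the 12 libraries. For Tfeb it was Tex14 (distance 0.21 on the log2 scale), for Mitf Susd2 (0.23) and for Tfe3 Fkbp1a (0.09). For the regulators it was Ddx20 for Flcn (0.11), Qtrt2 for Fnip1 (0.15), Slc35a3 for Fnip2 (0.13), Mis12 for Rraga (0.09), Slc38a1 for Rragc (0.20), Mgea5 for Rragd (0.09) and B3gat3 for Tsc2 (0.10). Tex14 and Susd2 were picked for nearness in these same libraries, so their fall with Tfeb and Mitf follows from the choice. Their log2 fold changes in total RNA were -4.16 ± 0.19 and -4.29 ± 0.29. The second nearest gene lay at 0.22 from Tfeb and at 0.33 from Mitf. The median distance from Tfeb and Mitf to all genes was 1.96 and 1.97.

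Promoters of the members were searched for the E-box CACGTG, the sequence that MiT/TFE dimers bind, since several members are themselves MiT/TFE targets by background knowledge. RefSeq starts on build GRCm38.p6 (the assembly called mm10) gave 15 windows of 250 bases upstream for the 10 genes, and the E-box, which reads the same on both strands, was in 2 of them (13.3%), those of Fnip1 and Rragc. It was in 6.02% of 32851 windows of all genes. With a T before it on either strand (TCACGTG, which contains the E-box) the same 2 windows matched, against 3.13% of all windows, and TCACGTGA matched no member and 0.785% of all. The Esrrb motif TCAAGGTCA, searched on both strands, was in none of the members' windows and in 0.387% of all. G and C made up 73.6% of the Fnip1 window and 68.0% of the Rragc window, where the median of all windows was 52.4%. How this content bears on the E-box shares was not tested. The 2 windows with an E-box are printed 5′ to 3′ with the E-box in capitals, Fnip1 from chr11:54437929-54438178 (plus strand, E-box at -75 to -70 from the start) and Rragc from chr4:123917183-123917432 (plus strand, E-box at -112 to -107).
Fnip1: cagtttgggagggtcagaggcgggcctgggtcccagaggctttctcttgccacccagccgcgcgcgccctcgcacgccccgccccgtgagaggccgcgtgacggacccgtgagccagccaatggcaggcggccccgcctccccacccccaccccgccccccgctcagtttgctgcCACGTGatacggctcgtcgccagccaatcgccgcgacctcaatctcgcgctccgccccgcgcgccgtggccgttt
Rragc: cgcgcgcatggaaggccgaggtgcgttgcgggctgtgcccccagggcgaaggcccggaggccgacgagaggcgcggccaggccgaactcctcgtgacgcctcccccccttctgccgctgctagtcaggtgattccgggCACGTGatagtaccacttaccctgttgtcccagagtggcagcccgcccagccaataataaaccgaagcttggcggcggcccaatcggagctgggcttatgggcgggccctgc
Both windows hold the letters CACGTGA. The total RNA of Rragc rose (log2 fold change 0.70), and that of Fnip1 had a log2 fold change of -0.01. A match of letters is a description of the window, and binding was not measured.

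The lists of pathway genes were read against the background. Among 22 measured genes of the lysosome and autophagy that are reported to carry CLEAR elements, the E-box-like sites of MiT/TFE factors, 11 fell, 2 rose and 9 did not pass in total RNA (limma-voom, adjusted p under 0.05), where 32.1% of all genes fell and 31.4% rose. In nascent RNA 14 fell and 2 rose, against 28.8% and 23.7% of all genes. The median log2 fold change was -0.26 in total and -0.65 in nascent RNA, beside 0.02 and -0.09 for all genes. Scpep1, a serine carboxypeptidase, fell by 1.61 ± 0.08 on the log2 scale (limma-voom adjusted p = 4.5e-10). Naglu, an enzyme of heparan sulfate breakdown, rose by 0.86 ± 0.22 (limma-voom adjusted p = 0.0038). It was low, at 3.65, 5.59 and 7.57 CPM in ESC total RNA, and its nascent change was -0.60 (limma-voom adjusted p = 0.49). Upstream windows were found for 19 of the 23 listed genes, and 6 of their 21 windows held an E-box (28.6%), those of Cln3, Gaa, Gla, Lamp1, Naglu and Sgsh.

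Of 6 amino acid sensing genes measured, 3 rose and 2 fell in total RNA, beside 31.4% and 32.1% of all genes. Sesn3, a sestrin that restrains mTORC1 through GATOR2, went from 37.6, 35.9 and 45.9 CPM to 104, 104 and 101 CPM (log2 fold change 1.39 ± 0.10, limma-voom adjusted p = 1.3e-08). Slc38a9, the lysosomal arginine sensor, rose by 1.01 ± 0.11 (limma-voom adjusted p = 1.4e-06). Other genes of the list fell, Sesn1 by 0.51 ± 0.11 (limma-voom adjusted p = 0.00099) and the leucyl-tRNA synthetase gene Lars by 0.28 ± 0.08 (limma-voom adjusted p = 0.0044).

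Of the 11 genes of GATOR1, GATOR2 and KICSTOR, the complexes that pass amino acid supply on to the Rags, 4 rose and 3 fell in total RNA, shares near the 31.4% and 32.1% of all genes. Nprl2, a GATOR1 subunit, fell from 26.7, 27.3 and 24.4 CPM to 12.6, 12.98 and 14.6 CPM (log2 fold change -0.97 ± 0.12, limma-voom adjusted p = 8.8e-06), and Wdr24, of GATOR2, fell by 0.56 ± 0.14 (limma-voom adjusted p = 0.0025). Mios, of GATOR2, rose by 0.42 ± 0.09 (limma-voom adjusted p = 0.00062) and Depdc5, of GATOR1, by 0.39 ± 0.09 (limma-voom adjusted p = 0.0014). Of the 5 Ragulator genes, whose complex anchors the Rags to the lysosome, 2 fell and 0 rose: Lamtor2 (-0.64 ± 0.10, limma-voom adjusted p = 5.5e-05) and Lamtor5 (-0.52 ± 0.12, limma-voom adjusted p = 0.0017).

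Among 5 mTORC1 genes, 2 rose and 2 fell in total RNA, where 31.4% of all genes rose and 32.1% fell. Mlst8 fell by 0.50 ± 0.09 (limma-voom adjusted p = 0.00021) and the kinase gene Mtor by 0.24 ± 0.07 (limma-voom adjusted p = 0.0086). Deptor, an inhibitor subunit, rose by 0.50 ± 0.10 (limma-voom adjusted p = 0.00068) and Rptor, the subunit that recruits substrates, by 0.24 ± 0.08 (limma-voom adjusted p = 0.023). The Rptor call was lost under 5 of 21 alternatives, without the expression filter and without replicate 1 or 2 of ESC total RNA or replicate 2 or 3 of EpiLC total RNA (adjusted p up to 0.13), and that of Mtor with library totals (0.065). In nascent RNA 0 of the 5 mTORC1 genes rose and 2 fell, against 23.7% and 28.8% of all genes. Their nascent changes ran from -0.55 to -0.15. That of Rptor was -0.24 (limma-voom adjusted p = 0.054) and passed under 4 of 21 alternatives. Of 7 AMPK genes measured, Prkag1 alone passed in total RNA, where 31.4% of all genes rose and 32.1% fell. It fell by 0.60 ± 0.10 (limma-voom adjusted p = 0.00011). In nascent RNA 2 of the 7 fell, against 28.8% of all genes. They were Prkag1 (-0.59, limma-voom adjusted p = 0.032) and Prkab2 (-0.48, limma-voom adjusted p = 0.031). The nascent call of Prkag1 was lost under 9 of 21 alternatives. Of 6 other family members and partners measured (Rragb, Tsc1, Tbc1d7, Rheb, Usf1 and Usf2), Rragb alone passed in total RNA and Rheb alone in nascent RNA. Both were higher, where 31.4% and 23.7% of all genes rose. Nascent Rragb (1.70, limma-voom adjusted p = 0.11) did pass under 3 of 21 alternatives. These were sample quality weights and the fits without both ESC replicate 3 libraries or without ESC total replicate 3. The total change of Rragb ran from 1.24 to 2.19 over the alternatives.

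Genes that set where MiT/TFE proteins sit in the cell gave 4 rises, 3 falls and 9 that did not pass among 16 in total RNA, shares below the 31.4% and 32.1% of all genes. In nascent RNA 6 of the 16 rose and 0 fell, against 23.7% and 28.8% of all genes. Sfn, which encodes the 14-3-3 protein sigma, rose from 7.76, 8.05 and 9.04 CPM to 104, 68.8 and 86.7 CPM (log2 fold change 3.38 ± 0.21, limma-voom adjusted p = 4.9e-09). Among other 14-3-3 genes, Ywhag fell in total RNA by 0.52 ± 0.09 (limma-voom adjusted p = 0.00013) and Ywhaq by 0.43 ± 0.07 (limma-voom adjusted p = 0.00014). Both started from higher levels, at 497 ± 29.8 and 127 ± 0.660 CPM in ESCs. In nascent RNA neither passed (limma-voom adjusted p = 0.13 and 0.49), although Ywhag did under 3 of 21 alternatives. Nascent RNA of Ywhab, Ywhah and Ywhaz rose. Ppp3cb, a catalytic subunit of calcineurin, the phosphatase that releases these factors to the nucleus, rose by 0.77 ± 0.11 (limma-voom adjusted p = 2.4e-05).

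Genes known from exit from the naive state were led by Esrrb, the naive factor that TFE3 is known to sustain. Esrrb fell from 579, 586 and 414 CPM to 9.37, 7.68 and 8.35 CPM in total RNA (log2 fold change -5.95 ± 0.24, limma-voom adjusted p = 7.3e-11), and nascent Esrrb fell by 5.82 ± 0.28 (limma-voom adjusted p = 1.4e-09). Of the 9 genes in that list 2 rose and 4 fell in total RNA, beside 31.4% and 32.1% of all genes. Jarid2, a partner of the Polycomb complex PRC2, fell by 0.89 ± 0.07 (limma-voom adjusted p = 6.0e-08), whereas Tcf7l1, a repressor of naive genes, rose by 1.09 ± 0.18 (limma-voom adjusted p = 9.9e-05) and Kdm2b, a Polycomb recruiter, by 0.67 ± 0.07 (limma-voom adjusted p = 1.3e-06). Esrrb was chosen as a naive marker too, so its fall is also part of the check of the cell types.

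**Figure D5:**
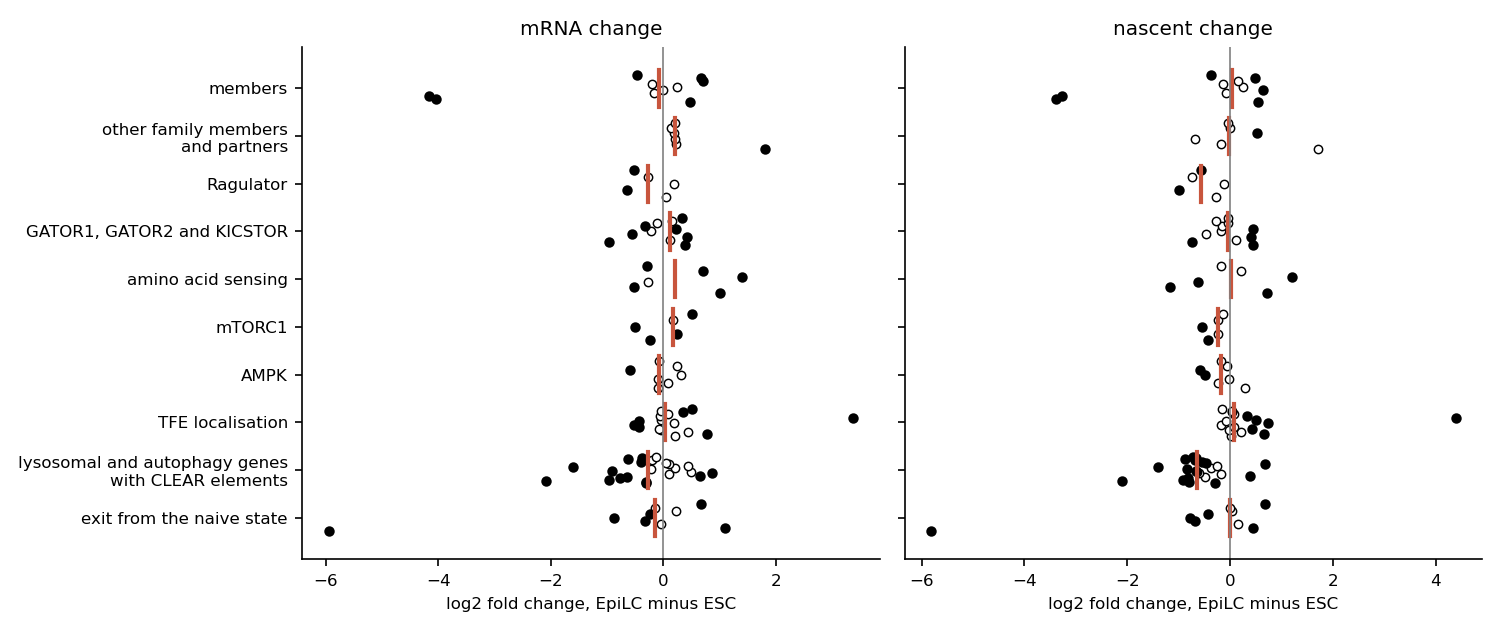
Log2 fold change, EpiLC minus ESC, of every measured gene in each list for total RNA (left) and nascent RNA (right); filled points passed an adjusted p under 0.05 in limma-voom and red bars are list medians. The lysosomal and autophagy genes lie mostly left of 0, at a median of -0.26 in total and -0.65 in nascent RNA.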

How the data were processed

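The authors deposited 1 table of raw read counts per gene for 12 libraries. Per the file headers and the submitters' processing notes, reads were trimmed with cutadapt 1.14, aligned to mm10 with STAR 2.5.3a, and uniquely placed reads were counted by strand over exons of GENCODE genes with featureCounts 1.5.3; ribosomal RNA genes were left out and 92 spike-in entries held 0 reads. The kit used for each library was not given in the sources used here. Symbols came from GENCODE M21, which held 51274 of 51467 gene IDs.

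From the counts, a gene was kept where 3 or more libraries reached 3 CPM. Filter, limma and a linear model with an interaction term follow the study's methods, which name neither voom nor TMM; here voom weights and a linear model of 4 group means were fitted to all 12 libraries (limma 3.58.1, TMM factors from edgeR 4.0.16, R 4.3.3), with two-sided tests and Benjamini-Hochberg adjustment over 14731 genes. "Rose" and "fell" mean an adjusted p under 0.05; the study's own call rule also asks for an absolute log2 fold change over 1. Log2 CPM used a prior count of 2. TPM used exonic lengths of the deposited table and no TMM factors. Levels, relative stability and promoter matches are descriptions without a test. Python 3.11.15, pandas 2.3.3, scipy 1.17.1 and matplotlib 3.10.9 made the summaries. The models were tested on simulated data.

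Members, gene lists and tests were chosen with earlier results of these data known. Every member is named; from each list the 2 largest rises and 2 largest falls in total RNA at an adjusted p under 0.05 (fewer where fewer passed), any gene with a stability change, and Esrrb are named. Some genes that this rule picks are not reported here. Pmel, Mlana and other markers are named as checks beside a result; Rheb was named after its values were seen. Alternatives were median-of-ratios scaling, library totals, TMM within each assay, no filter, DESeq2 1.42.0, the quasi-likelihood test of edgeR, voom with sample quality weights, replicate blocks, and libraries left out. The labels do not say that replicates were separate cultures. The study calls them biological replicates without describing how each was grown, so p-values measure only the spread between these libraries. Reads had no molecular identifiers, so depth covers counting error only.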

Additional observations from a re-analysis of the deposited data

Results flagged for a closer look

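No member met a rule for a closer look. Among the pathway lists, 6 genes had a stability change at a limma-voom adjusted p under 0.05, that is, total RNA and nascent RNA moved differently between the cell types. Over all genes, 2.72% were called higher and 1.88% lower. Of 5 mTORC1 genes 1 was higher, and of 16 genes for MiT/TFE localisation 2 were lower. Of 22 lysosomal and autophagy genes 2 were higher and 1 was lower. No gene of the other lists passed. Stability was higher in EpiLCs for Deptor (0.65 ± 0.16, adjusted p = 0.034), Tpp1 (0.61 ± 0.15, adjusted p = 0.039) and Vps18 (0.60 ± 0.16, adjusted p = 0.049). It was lower for Ywhab (-0.51 ± 0.12, adjusted p = 0.035), Ywhaz (-0.54 ± 0.13, adjusted p = 0.030) and Sqstm1 (-0.57 ± 0.14, adjusted p = 0.040).

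Deptor total RNA rose while its nascent RNA had a log2 fold change of -0.15 (limma-voom adjusted p = 0.31). Without both ESC replicate 3 libraries the nascent change of Deptor passed, still negative (limma-voom adjusted p = 0.030). Tpp1, a lysosomal peptidase, and Vps18, a tethering factor of the late endosome, fell in nascent RNA (-0.83 and -0.72) with total changes of -0.22 and -0.12 that did not pass. Sqstm1, the autophagy receptor p62, and the 14-3-3 genes Ywhab and Ywhaz rose in nascent RNA (0.67, 0.43 and 0.50) with total changes of 0.10, -0.08 and -0.05 that did not pass. The total change of Tpp1 did pass under 9 of 21 alternatives, and those of Vps18 and Ywhab under 2 each. For each of these genes the fit without both ESC replicate 3 libraries was among them. Total RNA of these genes thus cannot be called unchanged. No size was over 2-fold. Of 22 alternatives, the call was lost under 12 for Deptor, 13 for Tpp1, 13 for Vps18, 10 for Ywhab, 6 for Ywhaz and 9 for Sqstm1, with no change of sign, and the adjusted p ran up to 0.24 (Vps18).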

How the results depend on the processing

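The calls of Tfe3, Tfeb, Mitf, Rragc, Rragd and Tsc2 in total RNA and of Tfe3, Tfeb, Mitf, Fnip1 and Rragd in nascent RNA held under all 21 alternatives. Members called in total RNA numbered 6, but 7 with median-of-ratios scaling (Rraga added) and 8 with sample quality weights, without both ESC replicate 3 libraries or without ESC total replicate 3 (Rraga and Flcn added). Genes called numbered 4059 (mRNA), 3751 (nascent) and 227 (stability); without the expression filter they were 7107 and 5723 for mRNA and nascent, and without the fold threshold 9353, 7731 and 678. Stability calls were 846 with sample quality weights, 779 without both ESC replicate 3 libraries, and 69 to 658 with each library left out. Of stability calls, 80.2% were higher in EpiLCs, against 66.7% with median-of-ratios scaling, 90.0% with library totals and 70.9% with TMM within each assay. Members with a stability call numbered 0, but 3 with sample quality weights (Mitf, Fnip1, Rragc), 2 without both ESC replicate 3 libraries, and 0 to 1 with each library left out: Fnip1 without ESC 4sU replicate 1 or ESC total replicate 3, and Rragc without ESC 4sU replicate 3. The causes were not tested.

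Replicate numbers were tried as a pairing. Deviations of same-numbered 4sU and total libraries correlated at 0.02 to 0.46 (3 of 6 pairs over 0.1) and across cell types at -0.13 to 0.06, and the sources say that RNA was split but not that a number marks a shared extract, so the block was kept as an alternative. With the replicate block on the number, stability calls were 354 and members with one 0; with the culture block they were 528 and 1 (Fnip1). The block changed no member call in total or nascent RNA.

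Sign changes occurred only in values that had not passed in the main fit. Fnip1 mRNA was 0.0705 with library totals. Fnip2 nascent RNA was -0.0214 without both ESC replicate 3 libraries. Rragc nascent RNA was -0.21 in that fit, where it passed (limma-voom adjusted p = 0.044), and -0.0082 with sample quality weights. Fnip2 stability was 0.061 with library totals, 0.0207 with edgeR, 0.0248 and 0.0088 with the number and culture blocks, and 0.11 without both ESC replicate 3 libraries. Rraga stability was 0.0055 with library totals, and Tsc2 stability 0.0038 without both ESC replicate 3 libraries. With each library left out, values ran from -0.11 to 0.0487 for Fnip1 mRNA, -0.16 to 0.12 for Flcn nascent, -0.13 to 0.35 for Rragc nascent, -0.18 to 0.15 for Fnip2 stability, -0.17 to 0.0138 for Rraga stability and -0.27 to 0.0261 for Tsc2 stability. Depth limits Tfeb and Mitf most, at 9 to 19 reads in EpiLC 4sU libraries.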
